A study of Mus musculus with 9 samples.

Results

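Transcripts of the enzymes, carriers and regulators of fatty acid oxidation were followed by RNA-seq in dendritic cells cultured from mouse bone marrow (BMDC). Dendritic cells take up antigen and present it to T cells. The 34 genes were chosen by symbol: rows of the deposited table whose transcript identifiers belong to one of them were taken, and each of the 34 had exactly 1 row among 38887. The set holds Pdk4, 17 genes of mitochondrial enzymes and carriers, 9 of peroxisomal enzymes and transporters, 2 of enzymes found in both organelles, and 5 of long-chain acyl-CoA synthetases and the cytosolic thioesterase Acot1. Cells were left untreated or received lysophosphatidic acid (LPA), a signalling phospholipid, for 2 h or 6 h, with 3 libraries in each group. Genotype, mouse strain and age are not stated in the labels, nor are the LPA dose, a vehicle or the time at which untreated cells were taken. The labels do not say that replicates were separate cultures or animals, so each p-value reflects only how these samples vary among themselves, which may be technical variation.

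Fatty acids are activated to acyl-CoA by acyl-CoA synthetases before they can be oxidised. Long-chain acyl groups enter mitochondria as carnitine esters, made by CPT1 on the outer membrane, moved by the carrier SLC25A20 and turned back into acyl-CoA by CPT2. Inside, a dehydrogenase, a hydratase, a second dehydrogenase and a thiolase shorten the chain by acetyl-CoA units, and electrons leave through the electron transfer flavoprotein ETF. Peroxisomes run a parallel pathway with their own oxidases, bifunctional enzymes and thiolases, on very-long-chain and branched substrates. In dendritic cells and macrophages this pathway is studied as the counterpart of the glycolytic metabolism that follows activation. PDK4 is no enzyme of the pathway: it phosphorylates and inhibits pyruvate dehydrogenase, which spares glucose carbon while fatty acids are burnt.

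Libraries held 29628817 to 84596899 counts, and 14363 genes passed a filter on low counts, 33 of the 34 members among them. Principal components of log2 CPM, counts scaled for library depth, set the 3 groups apart, but replicate 2 at 2 h, the deepest library, lay closer to the 6 h libraries than the other replicates of its group did (9.7 on the first component, against -4.7 and -12.4 in the other 2 h libraries and 35.7 to 40.6 at 6 h). Values at 2 h are also given without it where that ends a call or moves a called value by over 1.5 times. Among dendritic cell markers, Itgax, Flt3, Zbtb46 and the class II genes were present, while Cd209a did not exceed 0.0454 CPM in any library. The 8 dendritic markers summed to 6850 to 7920 CPM untreated, 7380 to 8150 at 2 h and 6370 to 7000 at 6 h, and the 8 macrophage markers to 1620 to 1650 CPM untreated, 1610 to 1730 at 2 h and 1590 to 1650 at 6 h. Single markers moved within these sums. At 6 h the macrophage markers Fcgr1 (0.422-fold), C1qa (0.727-fold), Adgre1 (0.749-fold), C1qc (0.79-fold) and C1qb (0.843-fold) were lower than untreated and Mertk (1.66-fold) and Cd68 (1.15-fold) higher, and of the dendritic markers Itgax (0.788-fold) and H2-Ab1 (0.851-fold) were lower and Ccr7 (1.33-fold) higher. Markers of adipocytes, which express much of the pathway strongly, summed to at most 0.0652 CPM in any library, and Lep was at 0 throughout. The 5 fibroblast markers summed to 0.254 to 0.68 CPM untreated, 0.326 to 0.898 at 2 h and 1.09 to 1.48 at 6 h, of which Pdgfra held most at 6 h. The part of the macrophage, dendritic and fibroblast markers in the results was not tested.

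Sequences before start sites are shown for the members with changes of at least 2-fold at 6 h, and for 2 genes that lie beside another member, Acot2 and Hadhb, because several genes of the pathway are textbook targets of nuclear receptors. RefSeq start sites on GRCm38.p6 were available for 30 members, in 32 promoter windows. Acaa2, Decr1, Abcd2 and Hsd17b4 had no entry in the table used. The 250 bases before the start are printed for Pdk4, for Slc25a20 and Cpt1a of the carnitine shuttle, for Etfdh of electron transfer, for the neighbouring thioesterase genes Acot1 and Acot2, for Hadhb, which shares its promoter with Hadha, and for 1 of the 2 listed start sites of Acsl1, the member with the largest fall. Capitals mark the nuclear receptor hexamer AGGTCA and the GC box GGGCGG on either strand. Gene bounds in this text are from GENCODE, which does not always start a gene where RefSeq does. The printed bases of Cpt1a and Etfdh lie wholly inside the GENCODE genes (chromosome 19, 3322334 to 3385733, and chromosome 3, 79603788 to 79629500). They are thus not upstream of the GENCODE starts.
Pdk4, chr6:5496279-5496528, minus strand: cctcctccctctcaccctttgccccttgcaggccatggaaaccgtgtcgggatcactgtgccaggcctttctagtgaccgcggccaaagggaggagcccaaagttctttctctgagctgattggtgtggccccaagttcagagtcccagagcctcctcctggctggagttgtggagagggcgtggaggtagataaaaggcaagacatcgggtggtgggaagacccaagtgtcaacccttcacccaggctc
Slc25a20, chr9:108661886-108662135, plus strand: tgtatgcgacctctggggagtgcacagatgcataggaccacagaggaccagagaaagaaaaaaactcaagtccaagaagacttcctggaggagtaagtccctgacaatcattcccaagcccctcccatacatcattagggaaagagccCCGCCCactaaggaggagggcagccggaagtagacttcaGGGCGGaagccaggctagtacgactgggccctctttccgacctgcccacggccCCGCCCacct
Cpt1a, chr19:3323051-3323300, plus strand: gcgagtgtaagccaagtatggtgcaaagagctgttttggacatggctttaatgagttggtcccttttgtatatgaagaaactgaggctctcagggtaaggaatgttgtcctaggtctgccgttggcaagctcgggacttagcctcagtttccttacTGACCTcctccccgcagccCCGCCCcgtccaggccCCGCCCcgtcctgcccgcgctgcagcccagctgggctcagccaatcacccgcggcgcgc
Etfdh, chr3:79628768-79629017, minus strand: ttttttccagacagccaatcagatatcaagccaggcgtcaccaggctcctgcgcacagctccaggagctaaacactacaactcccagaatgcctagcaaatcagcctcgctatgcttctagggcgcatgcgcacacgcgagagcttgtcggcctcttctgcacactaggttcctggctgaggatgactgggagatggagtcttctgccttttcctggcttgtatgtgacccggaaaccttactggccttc
Acot1, chr12:84009252-84009501, plus strand: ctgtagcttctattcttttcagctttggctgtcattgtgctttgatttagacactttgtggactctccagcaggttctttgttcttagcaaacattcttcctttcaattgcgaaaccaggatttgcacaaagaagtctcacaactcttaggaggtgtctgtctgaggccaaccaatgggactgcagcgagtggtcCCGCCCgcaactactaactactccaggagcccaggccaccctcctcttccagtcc
Acot2, chr12:83987611-83987860, plus strand: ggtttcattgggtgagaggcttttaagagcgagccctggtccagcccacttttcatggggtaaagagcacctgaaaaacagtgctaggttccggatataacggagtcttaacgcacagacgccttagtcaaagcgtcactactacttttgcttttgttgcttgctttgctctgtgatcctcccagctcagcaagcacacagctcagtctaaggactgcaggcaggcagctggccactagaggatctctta
Hadhb, chr5:30155003-30155252, plus strand: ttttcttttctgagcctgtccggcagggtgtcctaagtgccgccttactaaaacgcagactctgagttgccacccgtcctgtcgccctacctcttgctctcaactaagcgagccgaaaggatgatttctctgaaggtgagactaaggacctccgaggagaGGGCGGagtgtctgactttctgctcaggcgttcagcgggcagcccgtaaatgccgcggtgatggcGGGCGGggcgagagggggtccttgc
Acsl1, chr8:46470787-46471036, plus strand: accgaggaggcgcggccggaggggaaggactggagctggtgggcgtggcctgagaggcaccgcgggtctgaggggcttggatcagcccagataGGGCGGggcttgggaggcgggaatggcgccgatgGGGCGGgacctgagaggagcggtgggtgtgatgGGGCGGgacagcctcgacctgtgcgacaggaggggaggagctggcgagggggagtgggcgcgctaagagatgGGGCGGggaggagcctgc

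Windows of 300 bases, 250 before and 50 after the start site, were searched on both strands. GGGCGG was present in 22 of the 32 member windows and in 35.7% of the 32851 windows of all genes. AGGTCA was present in 3 member windows, those of Acadm, Acadvl and Cpt1a, and in 16.3% of all windows. The DR1 element bound by PPAR-RXR dimers, searched as a direct repeat of AGGNCA with 1 base between, was in 0 member windows and in 0.381% of all windows, and a direct repeat of AGGTCA with the same spacing in 0 and 0.0396%. The ERR site TCAAGGTCA (which contains AGGTCA), the FOXO site GTAAACA and the cAMP response element TGACGTCA were also in 0 member windows, against 0.423%, 3.65% and 1.79% of all windows. These letters are a description of windows of this length only. Hadha and Hadhb, the subunits of the trifunctional protein, start 273 bases apart on opposite strands and their windows share 228 bases. Acot2 and Acot1 start 21641 bases apart on chromosome 12, both on the plus strand.

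After LPA most mitochondrial genes rose, and peroxisomal genes were called in both directions. At 2 h, 12 of the 17 mitochondrial members were higher than untreated and 0 were lower, and at 6 h 14 were higher and 1, Eci1, was lower. Of the 8 peroxisomal members tested, 1 was higher and 2 were lower at 2 h, and 2 were higher and 1 was lower at 6 h. The median log2 fold change of the mitochondrial members was 0.22 at 2 h and 0.54 at 6 h, that of the peroxisomal members -0.07 and 0.04, and that of all genes tested 0.00 and 0.01. Over the whole set, 16 of 33 tested members were higher and 2 lower at 2 h, where 38.5% of all genes passed the test, 19.3% higher and 19.2% lower. At 6 h, 19 were higher and 4 lower, where 52% of all genes passed, 26.4% higher and 25.7% lower. A gene passed with an adjusted p under 0.05 in the quasi-likelihood test of edgeR, adjusted by Benjamini-Hochberg over the 14363 genes, and "edgeR adjusted p" stands for that value below. Both comparisons use the same untreated libraries. With all 3 libraries at a time point on the same side of all 3 untreated ones, 22 members were separated at 2 h and 26 at 6 h, against 48.2% and 63% of all genes.

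Most of the changes were small. At 2 h, 6 members rose at least 1.5-fold and 2 of these, Pdk4 and Acot1, at least 2-fold. At 6 h, 11 rose at least 1.5-fold and 5 at least 2-fold (Pdk4, Acot1, Slc25a20, Cpt1a and Etfdh), and Acsl1 alone fell by as much. Among all genes tested, 4.33% at 2 h and 7.94% at 6 h passed the test with a change of at least 2-fold in either direction. In bulk RNA, fewer cells of a type and less RNA per cell cannot be told apart. Leaving out replicate 2 at 2 h left 16 members higher and 1 lower at that time, with 11 mitochondrial members higher. Leaving out untreated replicate 3 left 11 members higher at 2 h, 8 of them mitochondrial. Over the fits that left out 1 library, all genes called higher at 2 h ran from 2218 to 2731, against 2768 with every library.

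**Figure D1:**
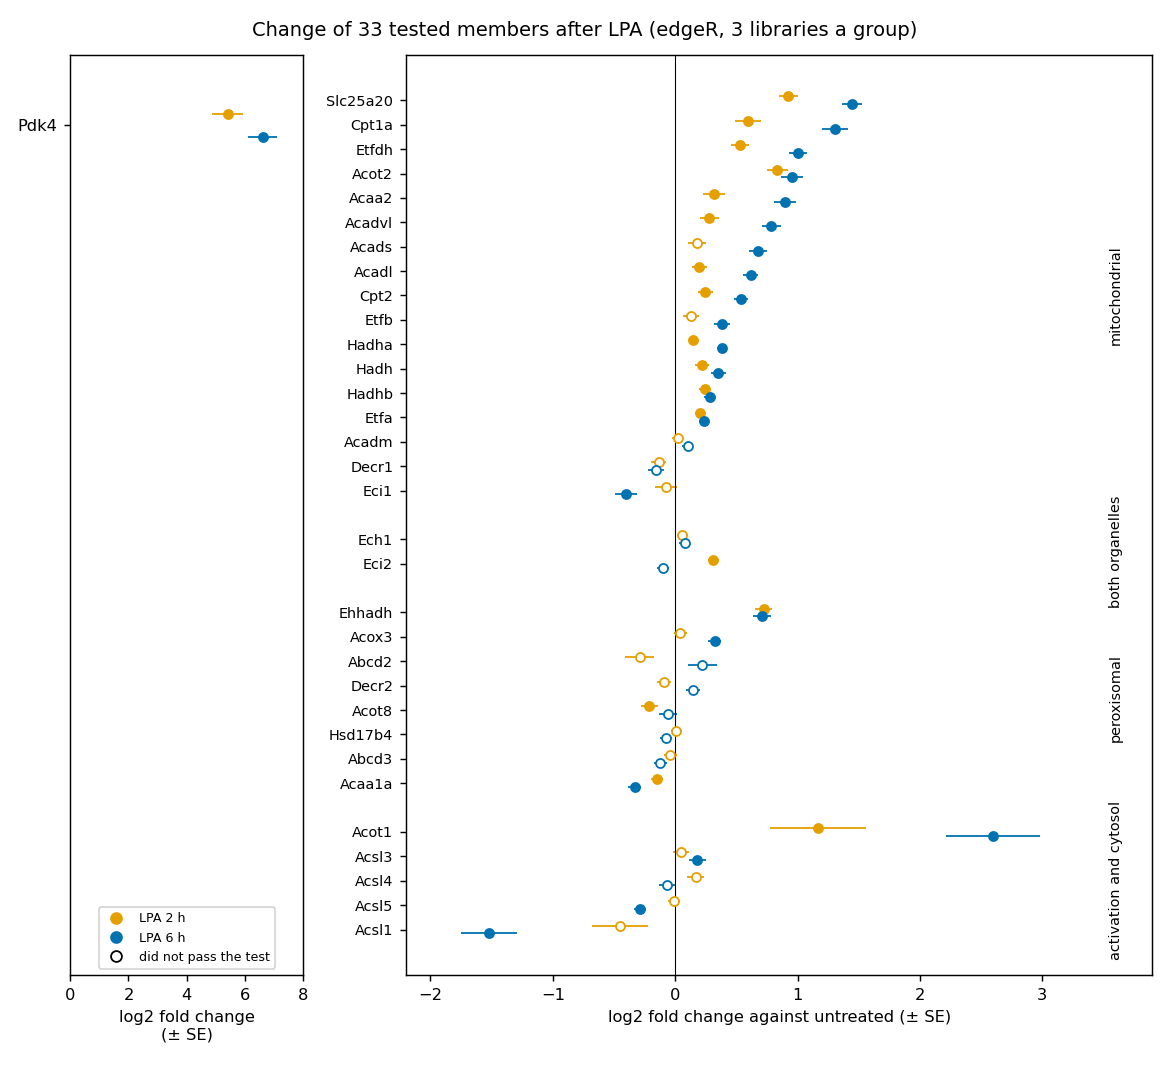
Log2 fold change against untreated (x axis, bars ± SE, 3 libraries a group) of the 33 tested members, at 2 h (orange) and 6 h (blue), grouped by the place of the enzyme, with Pdk4 on an axis of its own; open points did not pass the test. In 14 of 17 mitochondrial rows the 6 h point is filled and to the right of 0, while the peroxisomal rows lie on both sides of it.

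Pdk4 (chromosome 6, 5483351 to 5496309, minus strand, GRCm38) showed the largest change of the set. It had 0.0424, 0.0151 and 0.042 CPM in the untreated libraries, 1.32, 2.06 and 0.739 CPM at 2 h and 3.71, 3.25 and 2.88 CPM at 6 h. The untreated libraries held 2, 1 and 2 counts, so the gene was close to undetected there and passed the filter through the treated groups. Its pooled rate was 48.6 times the untreated rate at 2 h (95% interval 20.6 to 151, exact, for counting error only) and 103 times at 6 h (43.6 to 317). The level remained low in absolute terms, 0.942 CPM per kilobase of transcript (RPKM) at 6 h, below each of the other tested members. The 2 h libraries were spread, with replicate 2 highest, and every one of them lay below every 6 h library.

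At 6 h the largest mitochondrial rises were in genes of the carnitine shuttle, by which long-chain acyl groups enter. Cpt1a (chromosome 19, 3322334 to 3385733, plus strand) encodes the liver form of CPT1, the rate-limiting step of the pathway and the target of inhibition by malonyl-CoA. It had 136, 121 and 121 CPM in the untreated libraries, 184, 226 and 162 CPM at 2 h and 312, 313 and 309 CPM at 6 h, so that the 3 groups did not overlap and the 6 h libraries were nearly equal. The log2 fold change was 0.59 ± 0.10 (SE) at 2 h (edgeR adjusted p = 0.00146) and 1.30 ± 0.10 at 6 h (edgeR adjusted p = 5.98e-06), that is 1.51-fold and 2.47-fold. Slc25a20 (chromosome 9, 108662088 to 108684641, plus strand), the carnitine-acylcarnitine carrier of the inner membrane, had 18.7, 18.6 and 17.2 CPM in the untreated libraries, 32.3, 39.5 and 31.7 CPM at 2 h and 47.4, 51.9 and 49.3 CPM at 6 h. Its log2 fold change was 0.93 ± 0.08 at 2 h and 1.45 ± 0.08 at 6 h, the largest of the mitochondrial members at both times. Its 3 groups were also fully separated. Cpt2, which re-forms acyl-CoA in the matrix, rose less, by 0.25 ± 0.06 at 2 h and 0.54 ± 0.06 at 6 h on the log2 scale, with means of 26.8 ± 1.41 CPM at 6 h and 18.4 ± 0.345 CPM untreated (SD, n = 3 each).

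**Figure D2:**
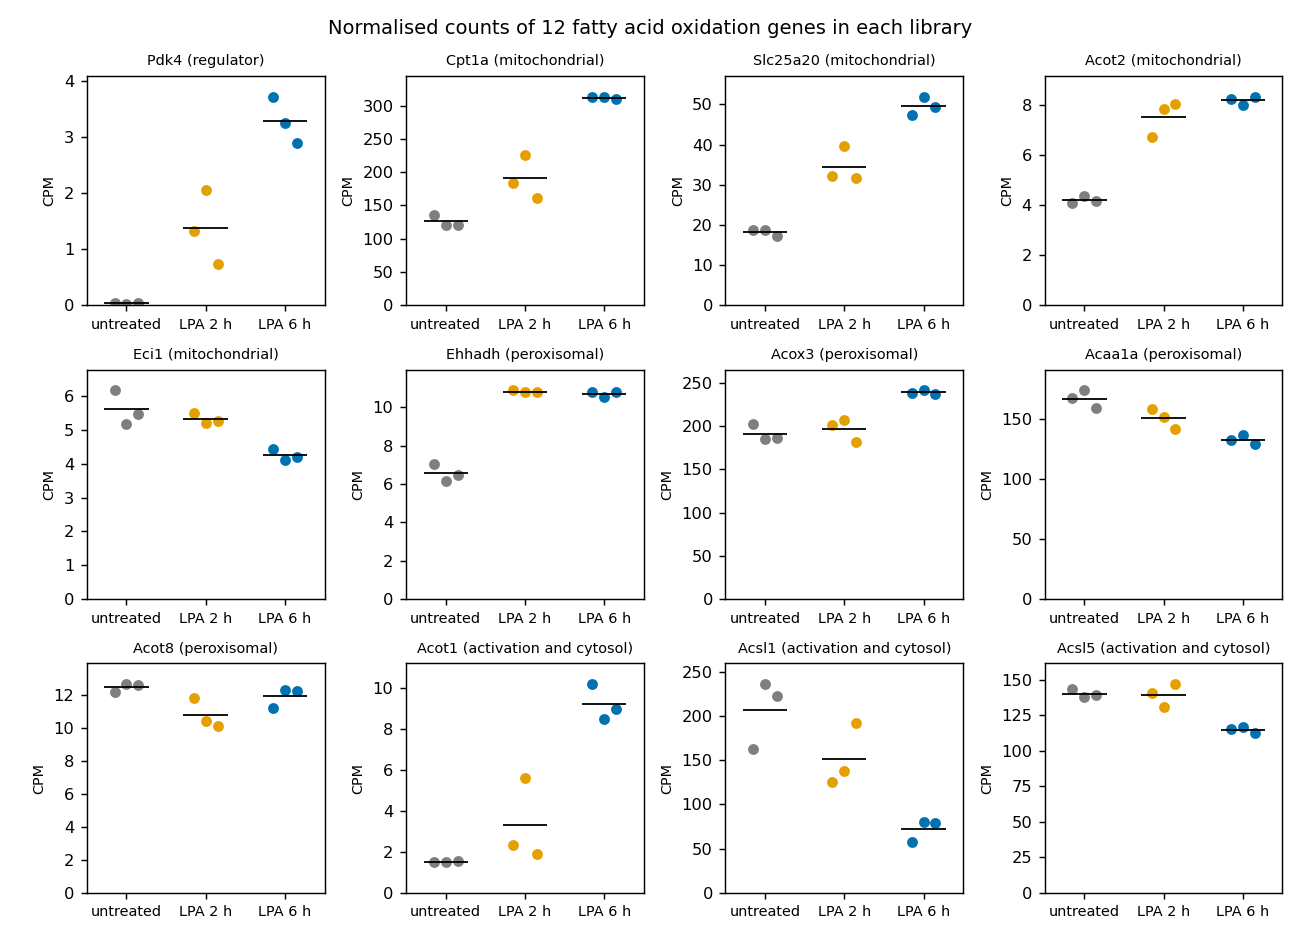
CPM (y axis, from 0) of 12 members in each library, untreated (grey), LPA 2 h (orange) and LPA 6 h (blue), with replicates 1 to 3 from left to right in each group and a line at the group mean. The 6 h points of Cpt1a, Slc25a20, Pdk4 and Acot1 lie above all other points of the same gene, and those of Acsl1 and Acsl5 below them.

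Within the beta-oxidation cycle the acyl-CoA dehydrogenases, which carry out the opening step on chains of different length, did not move alike. Acadvl (very-long-chain) rose by 0.79 ± 0.08 at 6 h on the log2 scale, Acadl (long-chain) by 0.62 ± 0.06 and Acads (short-chain) by 0.68 ± 0.07, and the 6 h and untreated libraries of each were apart. Acadm, the medium-chain enzyme, stood at 0.10 ± 0.05 at 6 h without passing (edgeR adjusted p = 0.0776), with 63.9 ± 0.942 CPM at 6 h against 59.5 ± 2.7 untreated. It passed at 6 h with scaling by total counts only and without untreated replicate 1. At 2 h Acadvl and Acadl had risen by 0.28 and 0.20, while Acads at 0.18 did not pass. With the replicate number as a block, Acads passed as higher at 2 h (edgeR adjusted p = 0.0169). Without replicate 2 at 2 h the values were 0.17 for Acadvl, 0.13 for Acadl and 0.09 for Acads on the log2 scale. The 2 h call of Acadl was lost without replicate 2 at 2 h (edgeR adjusted p = 0.0657), and those of Acadl, Acadvl and Acaa2 also without untreated replicate 2 or 3. That of Hadha was lost without untreated replicate 3 (edgeR adjusted p = 0.0599).

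The later steps rose as well. Hadha and Hadhb, the alpha and beta subunits of the trifunctional protein that joins hydratase, dehydrogenase and thiolase activities on long chains, rose by 0.15 ± 0.04 and 0.25 ± 0.05 at 2 h and by 0.38 ± 0.04 and 0.29 ± 0.05 at 6 h (log2). Hadh, the dehydrogenase for shorter chains, rose by 0.22 ± 0.06 and 0.35 ± 0.06. Acaa2, the mitochondrial thiolase that closes the cycle, rose by 0.32 ± 0.09 at 2 h and 0.90 ± 0.09 at 6 h, the largest change among the enzymes of the cycle itself at 6 h. Without replicate 2 at 2 h the 2 h value of Acaa2 was 0.19 (edgeR adjusted p = 0.0298). It had 49.4 ± 1.54 CPM at 6 h and 26.5 ± 1.51 CPM untreated.

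The genes of electron transfer rose unequally. Etfdh, the inner-membrane oxidoreductase that passes electrons to ubiquinone, rose by 0.53 ± 0.07 at 2 h and 1.01 ± 0.07 at 6 h (log2), and had 64.8 ± 1 CPM at 6 h and 32.3 ± 1.22 CPM untreated. Etfa and Etfb, the subunits of the soluble flavoprotein, rose by 0.23 ± 0.04 and 0.38 ± 0.06 at 6 h. At 2 h Etfa had risen by 0.20 and Etfb stood at 0.13 without passing the test, or at 0.08 without replicate 2 at 2 h. Of the 50-base stretches of Etfb transcripts, 43.8% also occur in Gm45233, a gene model that overlaps it, so the division of reads between them is uncertain.

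Of the auxiliary enzymes for unsaturated chains, neither mitochondrial member was called higher. Eci1 (chromosome 17, 24426641 to 24439348, plus strand), the mitochondrial enoyl-CoA isomerase, had 6.17, 5.17 and 5.49 CPM in the untreated libraries, 5.49, 5.2 and 5.26 CPM at 2 h and 4.43, 4.12 and 4.19 CPM at 6 h. Its 6 h libraries lay below all others, with a log2 fold change of -0.40 ± 0.09 (edgeR adjusted p = 0.00316), and at 2 h it stood at -0.07 with overlapping libraries. Decr1, the mitochondrial dienoyl-CoA reductase, had log2 fold changes of -0.14 ± 0.06 at 2 h and -0.16 ± 0.06 at 6 h, and neither passed the test. With the replicate number as a block, since the numbers paired the 6 h and untreated libraries, Decr1 passed as lower at 6 h (log2 fold change -0.15, edgeR adjusted p = 0.0402), which made 2 mitochondrial members lower.

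Acot2 (chromosome 12, 83987861 to 83993873, plus strand), a mitochondrial thioesterase that releases free fatty acid from acyl-CoA, rose early. It had 4.09, 4.37 and 4.18 CPM in the untreated libraries, 6.72, 7.83 and 8.05 CPM at 2 h and 8.25, 7.99 and 8.33 CPM at 6 h, with log2 fold changes of 0.84 ± 0.09 at 2 h and 0.96 ± 0.09 at 6 h and no call between the times (0.12 ± 0.08). Its cytosolic paralogue Acot1 (chromosome 12, 84009490 to 84018371, plus strand) had 1.5, 1.5 and 1.53 CPM in the untreated libraries, 2.35, 5.6 and 1.91 CPM at 2 h and 10.2, 8.48 and 8.95 CPM at 6 h. All treated libraries exceeded all untreated ones, but replicate 2 at 2 h was well above the other 2 h libraries. The log2 fold change of Acot1 was 1.17 ± 0.39 at 2 h (edgeR adjusted p = 0.0496) and 2.60 ± 0.39 at 6 h (edgeR adjusted p = 7.84e-04). Without replicate 2 the 2 h value was 0.50 (edgeR adjusted p = 0.0115), and in 11 other alternative settings the 2 h call was lost. Acot2 shares 24.5% of its 50-base stretches with Acot1, so their separate values rest partly on how the authors' counting divided shared reads.

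Of the enzymes present in both organelles, Ech1, a dienoyl-CoA isomerase, did not pass in any comparison, with log2 fold changes of 0.06 ± 0.04 at 2 h and 0.08 ± 0.04 at 6 h. Eci2, an enoyl-CoA isomerase, rose by 0.31 ± 0.05 at 2 h and was lower at 6 h than at 2 h (log2 fold change -0.41 ± 0.05). It averaged 59.4 ± 2.17 CPM untreated, 73.7 ± 0.73 at 2 h and 55.5 ± 2.64 at 6 h, and its 6 h level did not pass the test against untreated (-0.10 ± 0.05).

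Among peroxisomal members Ehhadh (chromosome 16, 21761287 to 21787807, minus strand), the L-bifunctional enzyme that carries out the hydratase and dehydrogenase steps, changed most. It had 7.06, 6.18 and 6.45 CPM in the untreated libraries, 10.9, 10.8 and 10.8 CPM at 2 h and 10.8, 10.5 and 10.8 CPM at 6 h. The treated libraries all lay above the untreated ones and within a narrow band, with log2 fold changes of 0.72 ± 0.07 at 2 h and 0.71 ± 0.07 at 6 h (edgeR adjusted p = 7.05e-06 and 4.98e-06). Hsd17b4, the D-bifunctional enzyme that acts at the same steps on branched chains, did not pass the test at either time (0.01 ± 0.05 and -0.08 ± 0.05). Acox3 (chromosome 5, 35583040 to 35615352, plus strand), an acyl-CoA oxidase for branched chains, had 203, 185 and 186 CPM in the untreated libraries, 202, 208 and 182 CPM at 2 h and 239, 242 and 237 CPM at 6 h. It rose at 6 h alone, by 0.32 ± 0.06 (edgeR adjusted p = 3.74e-04), and its 2 h value was 0.04 ± 0.06 with overlapping libraries.

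Acaa1a (chromosome 9, 119339676 to 119350299, plus strand), the main peroxisomal thiolase, was lower after LPA. It had 168, 174 and 159 CPM in the untreated libraries, 159, 151 and 142 CPM at 2 h and 132, 136 and 129 CPM at 6 h, and its log2 fold change was -0.15 ± 0.05 at 2 h (edgeR adjusted p = 0.0366) and -0.33 ± 0.05 at 6 h (edgeR adjusted p = 1.88e-04). The mitochondrial thiolase Acaa2 thus rose while the peroxisomal one fell at 6 h. Acaa1b, its near-identical paralogue, was almost undetected, holding 3, 1 and 1 counts in the untreated libraries, 0, 1 and 0 after 2 h, and 0, 0 and 1 after 6 h, and was not tested. Acot8 (chromosome 2, 164792765 to 164804882, minus strand), a peroxisomal thioesterase, had 12.2, 12.7 and 12.6 CPM in the untreated libraries, 11.8, 10.5 and 10.2 CPM at 2 h and 11.2, 12.3 and 12.3 CPM at 6 h. It was lower at 2 h (log2 fold change -0.21 ± 0.07, edgeR adjusted p = 0.0362) and stood at -0.06 ± 0.07 at 6 h. The 2 h call of Acot8 was lost in 9 alternative settings and that of Acaa1a in 7. Without replicate 2 at 2 h, Acot8 stood at -0.18 at that time (edgeR adjusted p = 0.083). Both were lost without a filter on low counts, in a fit of only the 6 libraries compared, and without untreated replicate 1 or 2, replicate 3 at 2 h or replicate 3 at 6 h.

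The remaining peroxisomal members did not pass against untreated at either time. Decr2, the peroxisomal dienoyl-CoA reductase, had log2 fold changes of -0.09 ± 0.06 and 0.15 ± 0.06, and the membrane transporters Abcd2 and Abcd3, which import very-long-chain and branched acyl-CoA, -0.29 ± 0.12 and -0.04 ± 0.05 at 2 h and 0.22 ± 0.12 and -0.12 ± 0.05 at 6 h. Decr2 and Abcd2 were higher at 6 h than at 2 h. Decr2 passed as higher at 6 h in several alternatives, among them limma-voom and scaling by total counts only, and Abcd3 as lower in 3. Abcd2 passed as higher at 6 h without untreated replicate 1 (log2 fold change 0.38, edgeR adjusted p = 0.00393). It passed as lower at 2 h without untreated replicate 2 (edgeR adjusted p = 0.0245) and with DESeq2 (DESeq2 adjusted p = 0.039).

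The acyl-CoA synthetases, which activate long-chain fatty acids, went in different directions. Acsl1 (chromosome 8, 46471037 to 46536051, plus strand), the isoform most tied to oxidation in muscle, fat and liver, had 162, 236 and 223 CPM in the untreated libraries, 125, 138 and 192 CPM at 2 h and 57.1, 79.6 and 78.8 CPM at 6 h. The 6 h libraries lay below all others, with a log2 fold change of -1.52 ± 0.23 (0.348-fold, edgeR adjusted p = 0.00136). The 2 h and untreated libraries overlapped, and without pairing the 2 h value of -0.45 ± 0.23 did not pass (edgeR adjusted p = 0.165). Each 2 h library did lie below the untreated library of the same number. With the replicate number as a block, Acsl1 passed as lower at 2 h (log2 fold change -0.45, edgeR adjusted p = 0.0098). Acsl5 (chromosome 19, 55251938 to 55297720, plus strand), which serves both oxidation and lipid synthesis, had 143, 138 and 139 CPM in the untreated libraries, 141, 130.5 and 147 CPM at 2 h and 115, 116 and 112 CPM at 6 h. It was lower at 6 h (log2 fold change -0.29 ± 0.05, edgeR adjusted p = 2.87e-04), and its 2 h value was -0.01 ± 0.05.

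Acsl3 (chromosome 1, 78657825 to 78707743, plus strand), an isoform of the endoplasmic reticulum and lipid droplets, had 34.7, 32.3 and 38 CPM in the untreated libraries, 33.8, 36.7 and 37.9 CPM at 2 h and 41.1, 38.3 and 39.8 CPM at 6 h. It was slightly higher at 6 h, by 0.18 ± 0.07 (edgeR adjusted p = 0.0347), a call that was lost when untreated replicate 1 or 2 or 6 h replicate 1 or 3 was left out. Acsl4, which prefers arachidonic acid, did not pass against untreated, with 0.17 ± 0.07 at 2 h and -0.07 ± 0.07 at 6 h, but was lower at 6 h than at 2 h (-0.24 ± 0.07). With the replicate block Acsl4 passed as higher at 2 h (edgeR adjusted p = 0.027). Summed over the 5 genes of activation and the cytosol, including Acot1, 1 was higher and 0 lower at 2 h, and 2 were higher and 2 lower at 6 h. Among all genes tested, 38.5% were called at 2 h (19.3% higher, 19.2% lower) and 52% at 6 h (26.4% higher, 25.7% lower).

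Per kilobase of transcript, the rises changed the order of the genes. In untreated cells Acox3 (48.1 RPKM), Acsl4 (47.5 RPKM) and Acaa1a (45.5 RPKM) stood highest by group mean, and Cpt1a came at place 12 with 29.2 RPKM. At 2 h Cpt1a was at place 5 with 44.1 RPKM, and at 6 h it stood at place 1 with 72.2 RPKM, followed by Acadl with 66.9 RPKM. Acsl1 was at place 7 untreated (36.5 RPKM), 14 at 2 h (26.7 RPKM) and 21 at 6 h (12.7 RPKM). Summed over their members, mitochondrial genes held 322 ± 12.9 RPKM untreated, 386 ± 27.3 at 2 h and 491 ± 6.52 at 6 h (SD, n = 3 each), with no overlap between the groups. Peroxisomal genes held 174 ± 5.17 RPKM untreated, 169.6 ± 4.74 at 2 h and 176 ± 2.55 at 6 h, differences within the spread of the libraries. These sums use the longest listed transcript of each gene as its length.

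**Figure D3:**
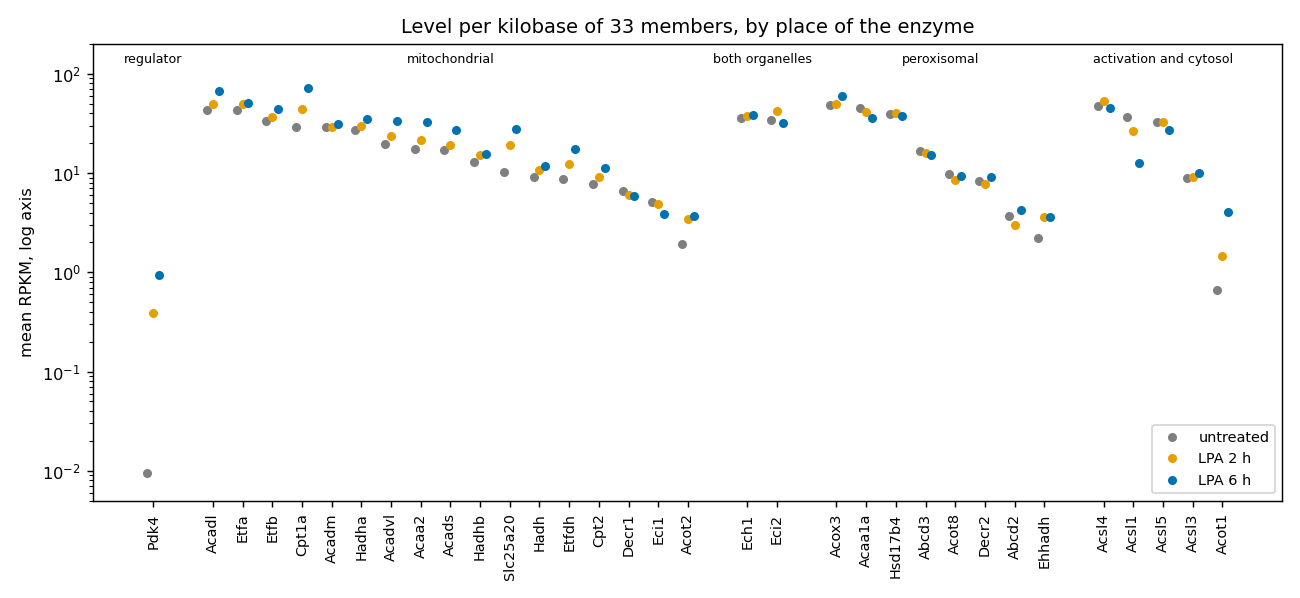
Mean RPKM (y axis, log scale) of 33 members in untreated cells (grey), at LPA 2 h (orange) and at LPA 6 h (blue), ordered within each place by the untreated level; Acaa1b, near 0, is not drawn. Cpt1a has the highest 6 h point of all, with 72.2 RPKM, and Pdk4 the lowest points at every stage.

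The 6 h libraries were set against the 2 h libraries to see which members went on changing. Between 2 h and 6 h, 15 members were higher at 6 h and 6 were lower, where 48.7% of all genes passed, 24.3% higher and 24.4% lower. The libraries of the 2 stages did not overlap for 24 members, against 58.9% of all genes. Of the mitochondrial members 10 were higher at 6 h and 1, Eci1, was lower, and of the peroxisomal ones 3 were higher and 1 lower. By at least 2-fold, 2 members rose (Pdk4 and Acot1) and 1 fell (Acsl1), where 4.57% of all genes passed with such a change in either direction. In 10 members (Pdk4, Cpt1a, Cpt2, Slc25a20, Acadvl, Acadl, Hadha, Acaa2, Etfdh and Acot1) all 3 comparisons gave a rise. In 5 others (Hadhb, Hadh, Etfa, Acot2 and Ehhadh) the rise was called at both times but not between them. Of these, Hadh had 6 h libraries apart from those at 2 h. It passed as higher at 6 h than at 2 h with the replicate number as a block (edgeR adjusted p = 0.0177). The same held with scaling by total counts only and without 6 h replicate 3. Acads, Etfb and Acox3 passed as higher at 6 h against both earlier stages and not at 2 h, and Eci1, Acsl1 and Acsl5 passed as lower in the same way. With the replicate block, Acads and Acsl1 passed at 2 h too. Acadm, Decr1, Hsd17b4, Abcd3 and Ech1 passed in no comparison.

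Of the log2 change that a member showed at 6 h, the share already present at 2 h ranged from 31.8% for Acadl to 102.1% for Ehhadh among the members called the same way at both times. Cpt1a had 45.6% of its 6 h log2 change at 2 h, Slc25a20 64% and Acot2 87.4%. These shares rest on the 2 h mean, and in 19 of the 21 members called between the times replicate 2 was the 2 h library nearest to the 6 h mean. Without that library the shares ran from 19.3% for Acot1, against 44.9% with it, to 102.7% for Ehhadh. They were 21.5% for Acaa2, against 35.6% with it, 22.2% for Acadvl, against 35.4%, 21.8% for Acadl, 34.9% for Cpt1a, 56.4% for Slc25a20 and 84.4% for Acot2. For Pdk4 no share is given, since its untreated libraries held 5 counts in all.

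Other genes around fatty acid breakdown, from a list of 42 that leaves out the members, were called in both directions. The list also holds genes outside that pathway, such as Ivd of leucine breakdown and Acss2 of acetate activation. Of 37 tested, 9 were higher and 5 lower at 2 h (median log2 fold change -0.01). At 6 h, 15 were higher and 6 lower (median 0.13). Of all genes, 38.5% were called at 2 h (19.3% higher, 19.2% lower) and 52% at 6 h (26.4% higher, 25.7% lower), with medians of 0.00 and 0.01. The calls of the list at 6 h thus leaned to higher. Acsf2, a mitochondrial acyl-CoA synthetase, had 19.6, 17.9 and 19.2 CPM at 6 h against 9.83, 10.1 and 10 CPM untreated, and rose by 0.92 ± 0.07. Acot7, a cytosolic thioesterase best known from brain, had 61.6, 64.3 and 59.4 CPM at 6 h against 95.4, 109 and 98.9 CPM untreated and fell, with a log2 fold change of -0.71 ± 0.06.

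Of 13 genes of pyruvate dehydrogenase, its kinases and phosphatases and the pyruvate carrier, 3 were higher and 0 lower at 2 h, and 5 were higher and 4 lower at 6 h, where 38.5% and 52% of all genes were called. Pdpr, the regulatory subunit of the phosphatase, rose by 0.44 ± 0.06 at 6 h and Pdha1, the catalytic alpha subunit, fell (log2 fold change -0.32 ± 0.05). The other kinases, named after their values were seen, went in different directions: at 6 h Pdk1 stood at -1.01 ± 0.14, Pdk3 at -0.50 ± 0.08 and Pdk2 at 0.73 ± 0.11, and all 3 passed the test. Per kilobase, the mean level of Pdk4 at 6 h was 0.942 RPKM, below Pdk1 (2.93 RPKM), Pdk2 (6.99 RPKM) and Pdk3 (9.19 RPKM).

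Genes around malonyl-CoA and AMPK, which bear on CPT1 activity, were followed next. Acaca, the acetyl-CoA carboxylase that makes the CPT1 inhibitor malonyl-CoA for lipid synthesis, had 109, 109 and 110.2 CPM in the untreated libraries, 93.7, 85.6 and 97 CPM at 2 h and 69.2, 69 and 70.8 CPM at 6 h. It fell, with log2 fold changes of -0.25 ± 0.05 at 2 h and -0.65 ± 0.05 at 6 h, and the 3 groups did not overlap. Prkag1, a subunit of AMP-activated kinase, rose by 0.26 ± 0.05 at 6 h. Of the 10 genes of the list, 2 were higher and 2 lower at 2 h, and 4 were higher and 2 lower at 6 h. At these times 38.5% and 52% of all genes were called, 19.3% and 26.4% higher and 19.2% and 25.7% lower.

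Of 15 tested nuclear receptors and co-regulators that act on the pathway, 6 were higher and 5 lower at 2 h, and 6 were higher and 3 lower at 6 h, where 38.5% and 52% of all genes were called. Foxo1, a transcription factor that drives Pdk4 in muscle and liver, had 15.1, 16 and 16.7 CPM in the untreated libraries, 27.4, 26.3 and 30.4 CPM at 2 h and 26.2, 23.7 and 25.5 CPM at 6 h, with log2 fold changes of 0.81 ± 0.07 and 0.66 ± 0.07. Lpin1, a phosphatidate phosphatase and co-activator, rose by 0.29 ± 0.05 and 0.46 ± 0.05. The PPAR receptors were named after their values were seen. Ppara did not exceed 0.0212 CPM in any library and was not tested. Ppard had 71.5, 83.8 and 79.7 CPM in the untreated libraries, 108, 99.1 and 109 CPM at 2 h and 84.1, 92.7 and 99.8 CPM at 6 h and passed as higher at both times, and Pparg had 4.79, 5.99 and 5.97 CPM in the untreated libraries, 2.85, 4.23 and 4.17 CPM at 2 h and 4.4, 3.98 and 4.3 CPM at 6 h and passed as lower at both. Ppargc1a, the co-activator PGC-1 alpha, also named afterwards, was at 0.8, 0.626 and 0.5 CPM at 2 h and 0.493, 0.817 and 0.654 CPM at 6 h, against 0.0636, 0.0302 and 0.0841 CPM untreated. Like Pdk4 it passed the filter through the treated groups.

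Peroxisome biogenesis genes and catalase gave 3 higher and 3 lower of 17 at 2 h, and 7 higher and 3 lower at 6 h. At these times 38.5% and 52% of all genes were called, 19.3% and 26.4% higher and 19.2% and 25.7% lower. Cat, the catalase that removes the peroxide made by peroxisomal oxidases, had 607, 590.3 and 622 CPM in the untreated libraries, 589, 527 and 632 CPM at 2 h and 399.7, 401 and 376 CPM at 6 h, with a log2 fold change of -0.63 ± 0.06 at 6 h. Pex11a, which promotes peroxisome division, had 3.37, 2.93 and 2.92 CPM in the untreated libraries, 3.56, 4.77 and 3.78 CPM at 2 h and 6.31, 7.9 and 7.86 CPM at 6 h and rose by 1.27 ± 0.13 at 6 h.

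**Figure D4:**
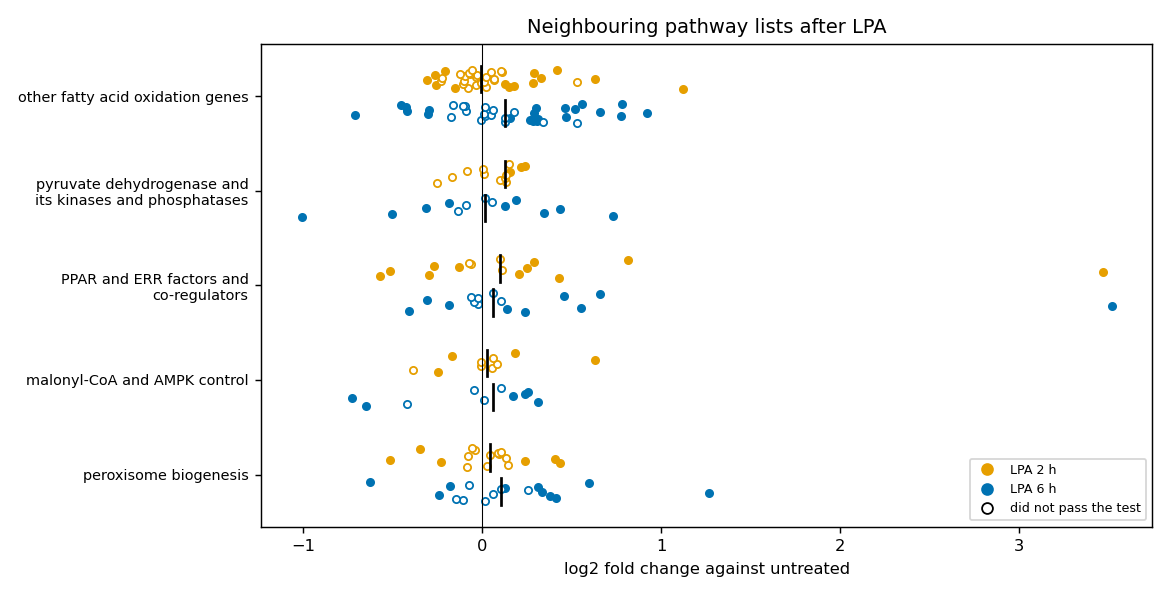
Log2 fold change against untreated (x axis) of each tested gene in 5 neighbouring lists, at LPA 2 h (orange, upper line of each list) and LPA 6 h (blue, lower line), with a bar at the median; open points did not pass the test. The medians lie between -0.01 and 0.13 at both times, and the isolated points on the right are Ppargc1a.

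Exons of 12 members overlap those of a gene on the same stretch of DNA, which non-stranded libraries cannot separate: Acadvl with Dvl2, Hadha with Garem2, Etfb with Gm45233, Etfdh with 4930579G24Rik, Acaa1a with Myd88, Acaa1b with Dlec1, Acox3 with 4931431C16Rik, Acot8 with Snx21, Eci2 with Gm16984, Acsl1 with Gm45244, Acsl3 with Utp14b and Acsl5 with Zdhhc6. Values of these members may hold reads of the partner.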

How the data were processed

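The authors deposited estimated counts per gene for 9 libraries, already whole numbers and not scaled for depth. RSEM 1.2.3, DESeq2 and build mm10 were used, per the submitters' processing notes, and libraries were non-stranded TruSeq, per the labels' protocols. The sources used here do not give the aligner or the annotation release. Rows list Ensembl transcripts and were matched to GENCODE M21 (GRCm38). Genes passing filterByExpr (minimum count 10, total 15) were fitted over all 9 libraries with edgeR 4.0.16 (R 4.3.3; TMM, glmQLFit, glmQLFTest, 1 mean a group), adjusted over 14363 genes and called under 0.05. The common biological coefficient of variation was 0.075. CPM used TMM-scaled totals. SE is the log2 fold change over the square root of F. The test was also run on simulated counts with independent replicates, in which a small part of the genes changed, at 6 h only. That run does not cover paired libraries or changes as widespread as in these data. No replicate pair was a repeat: chi-square per degree of freedom was 7.2 to 33.3.

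Deviations of same-numbered libraries correlated at 0.178, 0.144 and 0.151 for 6 h and untreated, so the numbers were taken to pair them, from the data and not the labels. For 2 h and untreated the same-numbered libraries correlated at 0.165, 0.09 and 0.184, and the differently numbered ones at -0.148 to -0.031. The numbers thus went together there as well, least in replicate 2. Alternatives were scaling (DESeq2 size factors, total counts, upper quartile), DESeq2 1.42.0, limma-voom (limma 3.58.1), filters, a replicate block, only the 6 libraries compared, and leaving out each library. Members, lists and tests were chosen with earlier results of these data known. Library values are given for Pdk4, Cpt1a and, per class and comparison with untreated, the 2 called members with the largest rise and the 2 with the largest fall, and of each other list the 2 genes with the smallest p at 6 h are named. Some other genes were added and are so described.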

Additional observations from a re-analysis of the deposited data

Results flagged for a closer look

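For 21 members the change at 6 h and the change at 2 h differed by edgeR's quasi-likelihood test of that difference, which is 6 h against 2 h since both share the untreated libraries. Higher at 6 h on the log2 scale were the regulator Pdk4 (1.2), the mitochondrial Cpt1a (0.71), Cpt2 (0.29), Slc25a20 (0.52), Acadvl (0.51), Acadl (0.42), Acads (0.50), Hadha (0.23), Acaa2 (0.58), Etfb (0.26) and Etfdh (0.47), the peroxisomal Acox3 (0.28), Decr2 (0.24) and Abcd2 (0.51), and the cytosolic Acot1 (1.43). Lower at 6 h were Eci1 (-0.33), Acaa1a (-0.18), Eci2 (-0.41), Acsl1 (-1.07), Acsl4 (-0.24) and Acsl5 (-0.28). The call of Acaa1a was lost with scaling by total counts only and without replicate 1 at 2 h or replicate 3 at 6 h, and that of Acsl4 without replicate 2 at 6 h.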

How the results depend on the processing

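Over 19 alternative settings, 9 of them leaving out 1 library, no called member changed direction, and 11 sign changes were of members called neither way. Counts of members called higher ran from 11 to 18 at 2 h and from 18 to 20 at 6 h when a library was left out, and from 15 to 17 and 19 to 22 in the other settings. Those of all genes called higher were 2768 at 2 h and 3786 at 6 h in the main fit. They ran from 2218 to 2731 and 3185 to 3994 when a library was left out, and from 2542 to 3062 and 3588 to 4247 in the other settings. Relative to their size, the small counts of members called lower moved most. Members lower at 2 h, all peroxisomal, numbered 2, and became 0 without a filter and with only the 6 libraries compared, and 0 to 2 with a library left out. Mitochondrial members lower at 6 h became 2 with limma-voom, with the replicate block and with only the 6 libraries compared, and ran from 1 to 2 with a library left out. Peroxisomal members lower at 6 h against untreated became 2 with only the 6 libraries compared and ran from 1 to 2 with a library left out, and those lower at 6 h against 2 h became 0 with total counts only and ran from 0 to 1. The cause was not tested. For 2 h against untreated, where same-numbered libraries also correlated, the block gave 17 members higher and 3 lower. It lost Acot1 (edgeR adjusted p = 0.0822) and added Acads and Acsl4 as higher and Acsl1 as lower. Between the times the block gave 16 higher and 6 lower, and at 6 h against untreated 19 and 5. Scaling by total counts only moved the median of all genes at 6 h to 0.05, and no scaling moved it further. Acaa1b, and Pdk4 in untreated cells, are limited by depth.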

Other observations

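Some genes that act beside the members were looked at after their values were seen. Cpt1b, the muscle form of CPT1, was at 0.945 RPKM at 2 h, below Cpt1a with 44.1 RPKM, and rose at 2 h, with 3.63, 2.26 and 2.33 CPM at 2 h against 1.36, 1.44 and 0.946 CPM untreated (log2 fold change 1.12 ± 0.21). At 6 h it stood at 0.53 ± 0.22 without passing edgeR's quasi-likelihood test, and it was lower at 6 h than at 2 h (-0.59 ± 0.20). Crot, which makes carnitine esters of the chains shortened in peroxisomes, rose by 0.15 ± 0.05 at 2 h and 0.30 ± 0.05 at 6 h, and its treated and untreated libraries were apart.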
